A study of Rattus norvegicus with 28 samples.

Results

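The genes described here encode the heat shock proteins and the DnaJ chaperones of the rat. They were taken as the array features whose gene name starts with Hsp followed by a digit or a letter from a to e, or with Dnaj, which gave 67 genes of 35469 features. These 67 genes were measured by 100 probes on 118 spots, and 20 of them had more than 1 probe.

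Heat shock proteins are molecular chaperones that keep other proteins folded, and many of them are induced when heat, oxidation or injury damages proteins. HSP70 proteins bind unfolded stretches and release them with the use of ATP, DnaJ proteins (HSP40) bring them their clients and start that cycle, and HSP110 proteins renew the bound nucleotide. HSP90 matures kinases and steroid receptors, HSP60 and HSP10 form the folding chamber of mitochondria, and the small heat shock proteins hold damaged proteins without ATP. In the nervous system, small heat shock proteins are known from reactive glia and injured neurons, and several DnaJ proteins are known from synapses.

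Spinal cord tissue was taken from adult female Sprague Dawley rats, as a stretch of 1.5 cm that held the lesion in injured animals. T0 animals are called sham in the labels and uninjured in the paper, and T1, T2, T4 and T8 animals were killed 1, 2, 4 and 8 weeks after a 250 kdyn contusion (severe spinal cord injury, SCI) at thoracic level T8. T1_NPC animals received neural progenitor cells (NPCs) right after injury and were killed at week 1, whereas T2_NPC animals received them 1 week after injury and were killed at week 2. The NPCs came from spinal cords of other injured adult rats, and the injured animals without cells received cell-free medium according to the methods. The labels give tacrolimus, an immunosuppressant, at 1 mg/kg from the day before transplantation in a protocol shared by all samples, and for T2_NPC they name a segment that starts a level lower, with the cord length unchanged. Each of the 7 groups held 4 arrays, each from its own animal according to the methods.

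The deposited data have 2 features that bear on every value below. First, the values of a sample in the normalised table ranked the probes as 1 scanner output did (Spearman correlation 1.0, at most 0.9926 with any other), but for 16 of the 28 arrays that output was deposited under another sample (correlation with its own column 0.9476 to 0.9916). The samples named in the value table were used here. Under the samples of the scanner outputs, 0 members passed the test at T1, T2, T4 or T8 against T0 or in T1_NPC, and 1 member passed in T2_NPC. Of all 35469 features, 0, 1, 0 and 0 passed under those samples at T1, T2, T4 and T8, 0 in T1_NPC and 43 in T2_NPC. With the 12 arrays on which both sources agree, 27, 27, 19 and 29 members passed at T1, T2, T4 and T8 (40.3%, 40.3%, 28.4% and 43.3% of the members, against 30.8%, 33.6%, 26.6% and 37.5% of all features), and 24 passed in T2_NPC (35.8%, against 20.9%). T1 and T4 had 1 such array each, assumed to vary like those of the other groups, and T1_NPC had none. Second, T1_NPC replicate 2 stood apart from its group, with a standard deviation (SD) of 0.81 on the log2 scale from the mean of the other 3 arrays over all features, against 0.43 to 0.61 for the other 27 arrays. Over the 67 members alone, the SD was 0.87 for T1_NPC replicate 1 and 0.78 for replicate 2, against 0.16 to 0.45 for the others. Dnajc5g, which was well above background on 1 array, read 7.27 in T1_NPC replicate 1 and 1.32 to 1.40 in the rest of that group, and without it the SDs of replicates 1 and 2 were 0.48 and 0.75. Of the members, 60 were well above background on every array, 5 on some and 2 on none. Between 74.5% and 82.7% of the spots of an array were well above background.

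**Figure D1:**
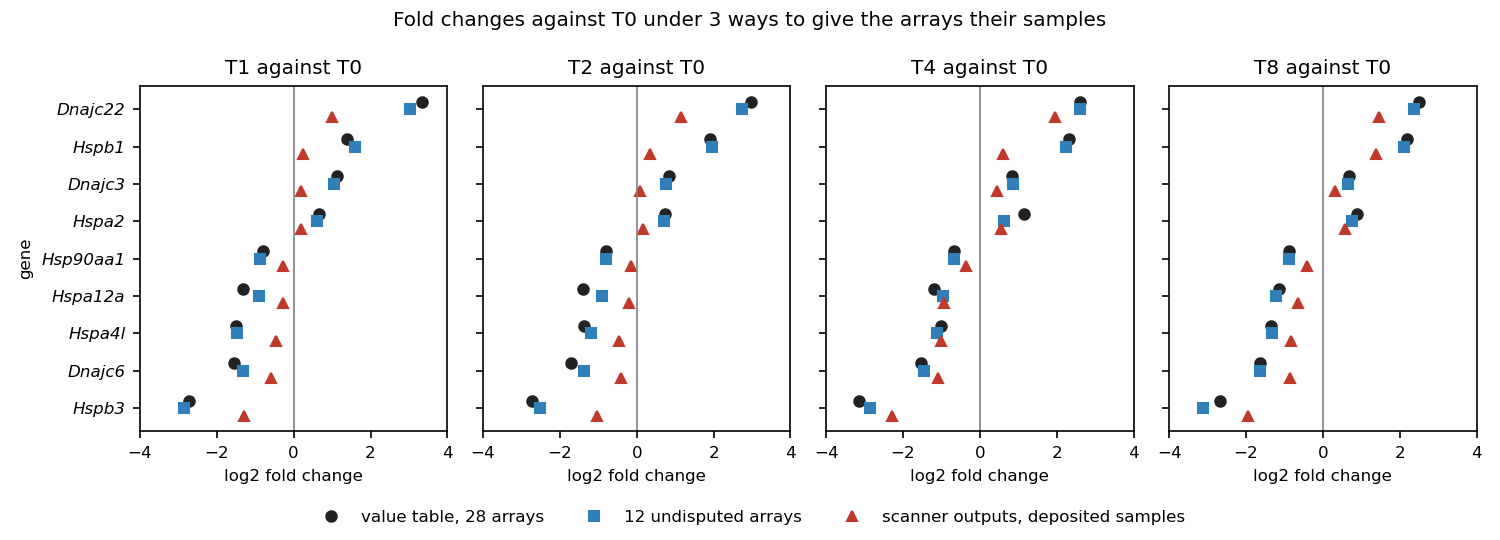
Log2 fold change against T0 (x axis) of 9 members (y axis) at each time point, with the value table (black circles), with the 12 arrays on which both sources agree (blue squares) and with each scanner output taken for the sample it was deposited under (red triangles). Black and blue symbols lie near each other, and red symbols lie closer to 0 for most genes, as for Dnajc22 at T1 (3.34, 3.04 and 1.00).

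Heat shock genes are read by heat shock factors, which bind repeats of the unit GAA in alternating orientation. A RefSeq promoter of 300 bases, with 250 before and 50 after the start on the GRCr8 assembly, was found for 50 of the 67 members. A pair of adjoining units (GAANNTTC or TTCNNGAA, which read alike on both strands and can overlap) was present in 14 of the 50 member promoters (28%) and in 15.9% of all 33469 promoters of that length. A run of 3 units was present in 4 of 50 (8.0%: Dnaja1, Hspa8, Hspd1 and Hspe1) and in 0.798% of all promoters. The windows of Hspd1 and Hspe1 overlap and share their run, so the same stretch of DNA counts for both genes here and below. Pairs of units were found in 3 of 10 promoters of members that were higher than T0 at any time point, in 3 of 12 of members that were lower, and in 8 of 28 of members with no call. Runs of 3 units were found in 0 of 10, 1 of 12 and 3 of 28 of them. A match is a description of the letters and not of binding. The 250 bases before the start are printed 5′ to 3′ on the strand of the gene for 4 members that behaved differently below, with the pairs of units in capitals: Hspb1 rose after injury, Dnajb1 was higher in the transplanted groups, Dnaja1 was lower at T1 and T8, and Hspd1 passed no test.
Hspb1 (chr12:26432302-26432551, minus strand): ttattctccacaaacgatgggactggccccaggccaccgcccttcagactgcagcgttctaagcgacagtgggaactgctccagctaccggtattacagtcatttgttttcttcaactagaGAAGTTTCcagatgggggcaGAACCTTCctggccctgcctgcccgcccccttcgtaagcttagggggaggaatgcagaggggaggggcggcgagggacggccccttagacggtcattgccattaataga
Dnajb1 (chr19:41431142-41431391, minus strand): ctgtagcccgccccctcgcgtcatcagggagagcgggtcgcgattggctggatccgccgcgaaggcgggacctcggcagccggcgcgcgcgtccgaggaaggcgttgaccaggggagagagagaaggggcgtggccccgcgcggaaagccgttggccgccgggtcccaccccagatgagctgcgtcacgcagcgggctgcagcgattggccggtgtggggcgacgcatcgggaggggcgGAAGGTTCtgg
Dnaja1 (chr5:60638154-60638403, plus strand): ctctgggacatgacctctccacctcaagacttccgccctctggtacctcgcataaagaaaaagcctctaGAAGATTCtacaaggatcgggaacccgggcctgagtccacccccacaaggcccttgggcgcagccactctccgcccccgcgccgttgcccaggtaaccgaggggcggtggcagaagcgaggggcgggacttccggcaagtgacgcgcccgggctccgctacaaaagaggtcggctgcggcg
Hspd1 (chr9:64084038-64084287, minus strand): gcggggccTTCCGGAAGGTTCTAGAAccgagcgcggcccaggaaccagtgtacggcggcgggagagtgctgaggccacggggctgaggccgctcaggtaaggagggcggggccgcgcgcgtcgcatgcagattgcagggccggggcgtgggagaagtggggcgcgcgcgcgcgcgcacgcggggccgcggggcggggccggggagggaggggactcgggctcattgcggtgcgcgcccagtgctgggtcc

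The window of Hspb1 held 2 separate pairs of units, the nearer one 101 bases before the start. That of Hspd1 held a run of 18 bases with 3 overlapping pairs, 224 bases before the start. The run of 3 units of Dnaja1 lay in the 50 bases after the start and is not shown.

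The first question was which chaperone genes changed after SCI. Values are log2 signals of the quantile normalised table, averaged over the probes of a gene, and a difference is called where limma gave an adjusted p (Benjamini-Hochberg, over all 35469 features) under 0.05. At T1, 10 of the 67 members were upregulated (14.9%, against 19.1% of all features) and 22 were downregulated (32.8%, against 25.1%). At T2, 9 members rose and 18 fell, against 17.7% and 22.2% of all features. At T4, 11 rose and 16 fell, against 17.5% and 21.0%. At T8, 11 rose and 16 fell, against 18.2% and 21.5%. The median log2 fold change of the 67 members lay between -0.17 and -0.09 at the 4 time points, and that of all features between -0.10 and -0.04. All 4 comparisons share the T0 arrays. Of the members, 36 were called at 1 or more time points and 31 at none, and 0 were called in opposite directions at different time points. The shares of all features called at any time point or in opposite directions are not given here. Whether these member counts differ from those of all features was therefore not tested. In all, 7 members were higher at all 4 time points (Dnajc13, Dnajc14, Dnajc22, Dnajc3, Hspa1l, Hspa2 and Hspb1; 12.3% of all features did so), and 13 were lower (Dnaja2, Dnaja4, Dnajb4, Dnajc12, Dnajc21, Dnajc24, Dnajc5b, Dnajc6, Dnajc7, Hsp90aa1, Hspa12a, Hspa4l and Hspb3; 15.9% of all features did so). Scaling to the 75th percentile of each array in place of quantile normalisation moved the median of all features by more than 0.1 in 6 comparisons: to -0.27 at T1, -0.16 at T4, 0.12 for T2 against T1, 0.15 for T8 against T1, 0.11 in T1_NPC and -0.14 for the difference between the transplantation effects.

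**Figure D2:**
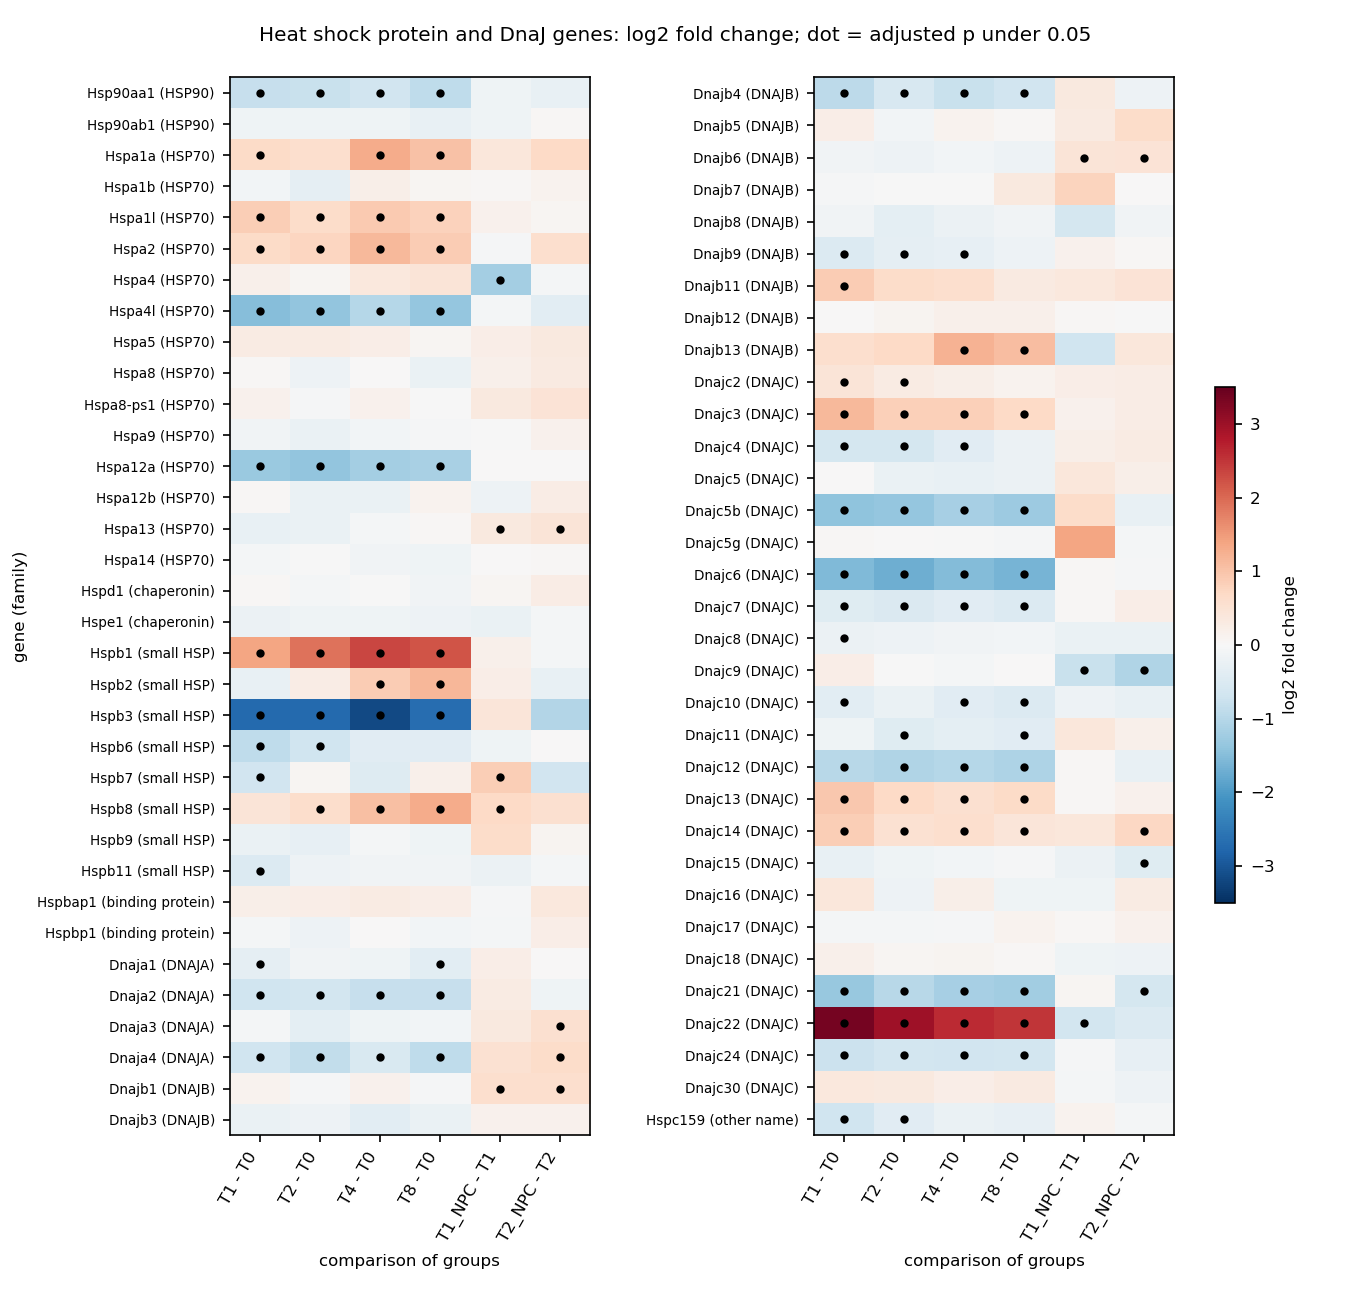
Log2 fold change (colour, red higher and blue lower) of all 67 members (y axis, with their family) in the 4 comparisons with T0 and the 2 comparisons of transplanted with injured groups (x axis), and a dot where the adjusted p was under 0.05. Hspb1 and Dnajc22 carry the strongest red and Hspb3 the strongest blue in the injury columns, and few dots stand in the NPC columns; Dnajc5b and Dnajb7 were not well above background on any array and Dnajc5g on 1.

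Fewer cells of a type and less RNA per cell cannot be told apart in these tissue extracts. Of 11 neuronal marker genes, between 10 and 11 were lower than T0 at each time point, with a summed linear level of 325000 to 450000 in T0 and of 91300 to 176000 in the injured groups without cells. All 10 markers of microglia and macrophages were higher at each time point (sum 70400 to 83600 in T0 and 516000 to 666000 at T1), and 5 of 6 Schwann cell markers were higher. Of 8 oligodendrocyte markers, 5 to 7 were lower at each time point. The part of these shifts in the changes of the chaperone genes was not tested.

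Among the small heat shock proteins, Hspb1 (Hsp27), which caps actin filaments and binds damaged proteins, rose the most. In T0, the log2 signals of Hspb1 in replicates 1 to 4 were 14.07, 13.71, 14.13 and 13.69. They were 15.69, 15.27, 15.10 and 15.03 at T1, and 15.63, 15.96, 16.18 and 15.43 at T2. At T4 they were 16.10, 16.36, 16.12 and 16.34, and T8 had 16.07, 16.30, 15.95 and 16.10. Every injured array without cells lay above every T0 array, and the T4 and T8 arrays lay above all T1 arrays. Hspb1 was 1.38 ± 0.19 higher at T1 on the log2 scale (difference ± standard error, adjusted p = 2.18e-06 in limma), 1.90 (T2), 2.33 (T4, 5.03-fold, adjusted p = 1.15e-09) and 2.20 (T8). From T1 to T8 the gain was 0.83 ± 0.19 (adjusted p = 0.00449 in limma).

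Hspb8 (Hsp22), which works with the cofactor Bag3 to send damaged proteins to autophagy, followed more slowly. Its T0 signals were 9.96, 10.10, 9.91 and 10.10. They were 10.29, 10.59, 10.22 and 10.82 at T1, and 10.72, 10.61, 10.30 and 10.91 at T2. At T4 they were 11.40, 11.13, 11.01 and 10.72, and T8 had 11.36, 11.12, 11.62 and 11.17. All of these injured arrays were above the T0 arrays, and the T8 arrays were above the T1 arrays. The difference of Hspb8 from T0 was 0.46 at T1 (adjusted p = 0.0576 in limma), and it reached 0.61 at T2, 1.04 at T4 and 1.30 ± 0.19 at T8 (adjusted p = 8.79e-06 in limma). The call at T2 was lost without T2 replicate 4 (0.52). Bag3 itself was 0.05 above T0 at T1, and it was higher at T4 (0.42) and T8 (0.37).

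Hspb2, a small heat shock protein of muscle, was late as well. Its signals were 5.40, 6.15, 6.31 and 5.89 in T0, 5.68, 5.51, 5.75 and 5.80 at T1, 6.61, 7.02, 6.57 and 7.07 at T4, and 6.79, 7.21, 6.83 and 7.51 at T8. T1 overlapped T0, whereas T4 and T8 lay above both. Hspb2 was 0.88 ± 0.30 higher than T0 at T4 and 1.15 ± 0.30 higher at T8 (adjusted p = 0.00326 in limma), and the T4 call was lost without T0 replicate 1 (0.70), T4 replicate 2 (0.82) or T4 replicate 4 (0.80). From T1 to T8 it gained 1.40 ± 0.30 (adjusted p = 0.00281 in limma).

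Hspb3, the small heat shock protein that pairs with Hspb2 in muscle, showed the largest fall. Its signals were 9.28, 7.89, 8.88 and 8.19 in T0, 6.24, 5.77, 6.02 and 5.28 at T1, and 5.12, 6.65, 6.46 and 5.13 at T2. At T4 they were 4.62, 4.88, 5.91 and 6.21, and T8 had 5.49, 5.88, 6.14 and 6.06. None of these injured arrays reached the lowest T0 array, whereas T1_NPC replicate 2 did (8.02). Hspb3 was lower than T0 by log2 differences of -2.73 ± 0.49 at T1 (adjusted p = 7.32e-05 in limma), -2.72 (T2), -3.15 (T4) and -2.67 (T8). With normexp background correction the fall at T1 was smaller, at -1.58, and still passed the test. The summed level of 16 skeletal muscle markers also differed between the groups (16300 to 24300 in T0, 4180 to 6850 at T1). The single markers were split at T1, with 4 called higher, as Acta1 (1.95), and 6 lower, as Tnnc2 (-3.15). Their part in the fall of Hspb3 was not tested.

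Hspb6 (Hsp20), known from smooth muscle, was lower at T1 (-0.88 ± 0.19, adjusted p = 5.09e-04 in limma) and T2 (-0.69). Hspb7, known from the heart, was dim, with 4.94, 4.58, 5.01 and 4.30 in T0 and 3.84, 4.05, 4.10 and 4.19 at T1. Its T1 arrays lay below all T0 arrays, with a difference of -0.66 ± 0.22 (adjusted p = 0.0183 in limma). The call was lost under 11 of 44 alternatives, among them normexp correction (-0.11), the second scan session alone (-0.32), the arrays on which both sources agree (-1.13) and leaving out T0 replicate 1 (-0.58), T0 replicate 3 (-0.56) or T1 replicate 1 (-0.59). Hspb11 was 0.47 lower at T1 on the log2 scale; its accession carries the current symbol Ift25, a component of cilia. Counting Hspb11 by its array name, 1 of 8 small heat shock protein genes rose and 4 fell at T1, Hspb11 among the latter. At T4 and at T8, 3 rose and 1 fell. At T1 these were 2 and 4 with 75th percentile scaling, and 1 and 3 with normexp correction. Of all features, 19.1% were higher and 25.1% lower at T1, and this background holds for the family counts below as well.

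**Figure D3:**
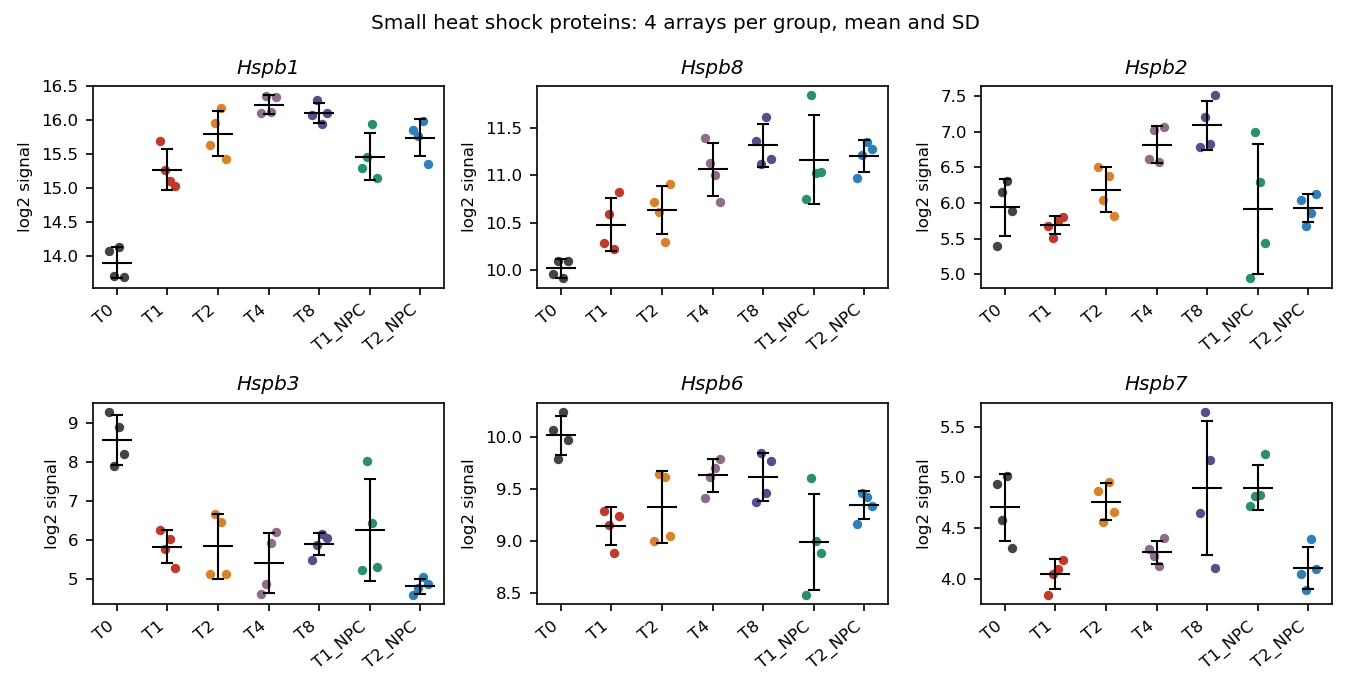
Log2 signal (y axis) of 6 small heat shock protein genes in the 4 arrays of each group (x axis), with points for arrays, a long bar for the mean and whiskers for the SD. Hspb1, Hspb8 and Hspb2 are highest at T4 or T8 among the groups without cells, Hspb3 is highest in T0, and T1_NPC replicate 2 is the highest T1_NPC point for Hspb8, Hspb2, Hspb3 and Hspb6.

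Among HSP70 proteins, the housekeeping forms passed no test at any time as means over their probes. Hspa8 (Hsc70), the constitutive HSP70 of the cytosol, differed from T0 by 0.04 ± 0.16 at T1 and -0.23 at T8. On their own, 1 of its 4 probes was called lower at T1, T2 and T4, and 2 were at T8. Hspa5 (BiP), the HSP70 of the endoplasmic reticulum, differed by 0.30 ± 0.17 at T1, and Hspa9 (mortalin), that of mitochondria, by -0.12 ± 0.14. The arrays of T0 and T1 overlapped for these 3 genes.

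The inducible and testis-type forms behaved differently. Hspa2, abundant in the testis, had signals of 11.84, 12.35, 12.09 and 12.57 in T0, 12.58, 13.01, 12.78 and 13.14 at T1, and 13.61, 13.75, 13.46 and 12.60 at T4. Every T1 and T4 array lay above the T0 arrays, the lowest by 0.01. Hspa2 was 0.66 ± 0.26 higher at T1, 0.74 (T2), 1.14 (T4, adjusted p = 9.39e-04 in limma) and 0.88 (T8). The T1 and T2 calls were lost without several single arrays, as without T0 replicate 1 (0.54 at T1, 0.62 at T2).

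Hspa1a, the stress-inducible HSP70, had signals of 8.11, 8.70, 8.33 and 9.44 in T0, 8.90, 9.63, 9.28 and 9.47 at T1, 10.06, 10.56, 10.00 and 9.19 at T4, and 10.15, 9.46, 9.56 and 9.53 at T8. T0 replicate 4 overlapped the T1 and T4 arrays. Hspa1a was 1.31 ± 0.27 higher at T4 (adjusted p = 4.97e-04 in limma) and 1.03 higher at T8, and its T1 value of 0.67 (adjusted p = 0.0496 in limma) fell to 0.50 without T0 replicate 1 and lost the call under 28 of 44 alternatives. Within the second scan session, the T8 value of 0.79 had an adjusted p of 0.0675. Hspa1b, a near-identical copy of Hspa1a, was measured by its own 2 probes and differed from T0 by -0.09 ± 0.31 at T1 and 0.21 at T4. These probes disagreed at T4 (-0.43 and 0.84) and T8 (-0.6 and 0.72), and 0 were called on their own. Whether the probes of each gene bind transcripts of the other was not tested.

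Hspa1l, the third gene of that cluster, was dim but well above background on 27 of 28 arrays, and T0 replicate 1 at 4.13 lay far below the other T0 arrays at 5.30, 5.39 and 5.77. It was called at all 4 time points (0.86, 0.64, 0.91 and 0.81 in order). Without that array the values were 0.52, 0.30, 0.57 and 0.47, and the calls at T2 and T8 were lost. All 4 calls were lost with the groups compared fitted alone, and the values with normexp correction were 0.27 at T1 and 0.28 at T4.

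Hspa4l, an HSP110 protein that exchanges the nucleotide of HSP70, fell. Its signals were 12.36, 12.59, 12.18 and 12.58 in T0, 10.80, 10.80, 11.42 and 10.70 at T1, 11.35, 11.53, 11.67 and 11.14 at T4, and between 10.88 and 11.52 at T8. All of these injured arrays lay below all T0 arrays. The log2 difference was -1.50 ± 0.19 at T1 (adjusted p = 7.81e-07 in limma), -1.37 at T2 and -1.35 at T8, and it was also called at T4. Hsph1, the other main HSP110 gene, was outside the naming rule of the members but fell in the same comparisons (-1.09 ± 0.22 at T1 and -1.29 at T8).

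Hspa12a, a distant HSP70 relative of the brain, fell as well. Its T0 signals of 9.67, 9.60, 9.62 and 9.72 differed little from each other, and the injured arrays without cells ranged from 7.69 to 8.83. The difference was -1.31 ± 0.21 at T1, -1.39 (T2), -1.20 (T4) and -1.14 (T8), and all 4 of its probes fell at T1. At T1, 3 of the 14 HSP70 genes rose and 2 fell, but scaling to the 75th percentile or normexp correction turned this to 2 and 3. At T8, 3 rose and 2 fell, against 3 and 3 or 2 and 2 with these alternatives.

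Hsp90aa1, the inducible HSP90, fell and Hsp90ab1, the constitutive one, passed no test. Hsp90aa1 signals were 15.40, 15.31, 15.19 and 15.26 in T0, 14.42, 14.55, 14.67 and 14.29 at T1, and 14.48, 14.58, 14.41 and 14.54 at T2. At T4 they were 14.47, 14.73, 14.64 and 14.63, and T8 had 14.39, 14.58, 14.45 and 14.23. These groups did not overlap with T0. The difference was -0.80 ± 0.11 at T1 (adjusted p = 1.41e-06 in limma), -0.79 (T2), -0.67 (T4) and -0.88 (T8), and its 4 probes fell by similar amounts at T1 (-0.88 to -0.75). Within the first scan session, which holds 1 T4 array, the T4 value of -0.66 had an adjusted p of 0.0899. Hsp90ab1 differed from T0 by -0.15 ± 0.13 at T1 and -0.26 at T8, and 1 of its 3 probes fell at T1. With scaling to the 75th percentile, both genes were lower at T1 and T8.

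The mitochondrial chaperonins Hspd1 (HSP60) and Hspe1 (HSP10), which share a divergent promoter region, passed no test. Hspd1 signals were 12.71, 12.97, 12.63 and 13.02 in T0 and 12.63, 12.98, 12.78 and 13.04 at T1, a difference of 0.03 ± 0.15. The T0 and T1 arrays of Hspd1 overlapped almost fully. Hspe1 differed by -0.21 ± 0.09 at T1 (adjusted p = 0.0844 in limma), and 1 of the 2 chaperonin genes was lower at T1 with 75th percentile scaling or normexp correction.

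The DnaJ proteins of class A work in the cytosol beside HSP70, except for the mitochondrial Dnaja3. At T1, 3 of 4 fell and 0 rose, and at T8 again 3 fell. Dnaja2 signals were 12.83, 12.78, 12.84 and 12.55 in T0 and 11.99, 12.03, 12.15 and 12.03 at T1, with no overlap. Dnaja2 fell by 0.70 at T1 on the log2 scale (standard error 0.12) and was 0.80 below T0 at T4 and T8. Dnaja4 was 0.69 lower at T1 and 0.88 lower at T8. Dnaja1, the main partner of Hsc70, changed little, at -0.32 ± 0.12 at T1 and -0.36 at T8, and both calls were lost without single arrays, as without T0 replicate 4 (-0.29 and -0.33).

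Of the 11 class B genes, 1 rose and 2 fell at T1. Dnajb11 (ERdj3), a partner of BiP, rose at T1 (0.90 ± 0.26), with signals of 9.02, 9.47, 9.38 and 9.48 against 8.11, 8.77, 8.07 and 8.81 in T0. Dnajb9 (ERdj4), another partner of BiP, went the other way at T1 (-0.49 ± 0.09), T2 (-0.31) and T4 (-0.29). Its T2 and T4 calls were lost within the second scan session, and the T2 call also with the arrays on which both sources agree. At T4, 1 of its 2 probes was called (-0.44 and -0.14). Dnajb4 was lower at T1 (-0.92), T2, T4 and T8. Dnajb1, the heat-inducible HSP40, and Dnajb6, which holds back polyglutamine aggregates, passed no test against T0 (0.13 ± 0.17 and -0.12 ± 0.11 at T1).

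Dnajb13, a protein of sperm tails and motile cilia, had signals of 5.15, 5.61, 5.33 and 5.39 in T0, between 5.80 and 6.08 at T1, and 6.08, 6.13, 5.96 and 6.11 at T2. They were 6.58, 6.71, 6.43 and 6.69 at T4, and 6.40, 6.48, 6.46 and 6.42 at T8. All injured arrays without cells lay above all T0 arrays. Dnajb13 was called higher at T4 (1.23 ± 0.39, adjusted p = 0.0137 in limma) and T8 (1.07), and its differences of 0.60 ± 0.39 at T1 and 0.70 at T2 passed no test in the fit over all arrays, in which T1_NPC replicate 2 read 3.06. The time-course arrays were also fitted alone, so without T1_NPC replicate 2, and with the scan session as a block. In that fit both were called (0.59 and 0.70, adjusted p = 6.20e-05 and 1.06e-05 in limma). Both were called within the second session as well (0.46 and 0.59). The first session, with a single T1 array, gave 0.77 and 0.81. The T4 value was 0.56 with normexp correction and still passed. The summed level of 10 ependymal cilia markers was 7900 to 8720 in T0, 7200 to 8530 at T1 and 16400 to 18000 at T4, and 3 of them were called higher and 1 lower at T4. Their part in the T4 and T8 values was not tested.

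Class C holds DnaJ proteins with special tasks, and 5 of 23 rose and 9 fell at T1. Dnajc22, the counterpart of a fly protein of clathrin-mediated endocytosis, changed more than any other member at T1. Its signals were 9.45, 9.20, 9.43 and 9.12 in T0, 12.48, 12.77, 12.53 and 12.79 at T1, and 12.28, 12.20, 12.16 and 12.39 at T2. At T4 they were 11.98, 11.82, 11.80 and 12.05, and T8 had 11.86, 11.83, 11.79 and 11.76. The T1 arrays were above all later arrays, and all were far above T0. Dnajc22 was 3.34 ± 0.19 higher at T1 (10.2-fold, adjusted p = 1.81e-12 in limma), 2.96 (T2), 2.61 (T4) and 2.51 (T8). From T1 to T8 it fell by 0.83 on the log2 scale (standard error 0.19, adjusted p = 0.00538 in limma).

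Dnajc3 (p58IPK), which restrains the stress kinase PERK and works in the endoplasmic reticulum, rose early too. Its signals were 10.43, 10.18, 10.39 and 10.31 in T0, 11.46, 11.54, 11.28 and 11.54 at T1, and 10.90, 11.15, 11.06 and 10.96 at T8. T8 lay between T0 and T1 with no overlap. Dnajc3 was 1.13 ± 0.12 higher at T1 (adjusted p = 3.33e-08 in limma), 0.84 at T2 and T4, and 0.69 at T8. From T1 to T8 it fell by 0.44 on the log2 scale, a call lost without T1 replicate 2 (-0.41). Dnajc13, an endosomal protein, and Dnajc14, which carries dopamine receptors out of the endoplasmic reticulum, were higher by 0.94 and 0.85 at T1. Dnajc2, a partner of the ribosome, was 0.44 higher at T1 and 0.28 higher at T2.

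The largest fall in class C at T1 was that of Dnajc6 (auxilin), which strips clathrin from vesicles in neurons. Its signals were 9.62, 9.53, 9.46 and 9.42 in T0, 8.22, 7.83, 8.17 and 7.68 at T1, and 7.37, 8.32, 8.03 and 7.43 at T2. At T4 they were 7.64, 8.00, 8.18 and 8.08, and T8 had 7.93, 7.83, 7.79 and 7.97. Each of these injured arrays was over 1 log2 unit below every T0 array. The difference was -1.54 ± 0.21 at T1 (adjusted p = 2.53e-06 in limma), -1.72 (T2), -1.53 (T4) and -1.63 (T8), and all 4 probes fell at T1. Dnajc5 (cysteine string protein), which guards synaptic vesicle fusion, passed no test (0.01 ± 0.16 at T1, -0.21 at T8). Dnajc21, which acts in ribosome assembly, fell by 1.32 at T1 on the log2 scale, and Dnajc12, a partner of aromatic amino acid hydroxylases, by 0.98. Dnajc24, needed to modify elongation factor 2, was 0.75 lower at T1, and Dnajc7, which links HSP70 and HSP90, was 0.42 lower. Dnajc5b carried calls but was not well above background on any array, so no level is given for it.

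The remaining members lay outside these families. The HSP70 cofactor Hspbp1 (-0.08 ± 0.17 at T1) and Hspbap1, which binds Hspb1 (0.21 ± 0.15), passed no test at any time point. Hspc159 carries the current symbol Lgalsl, which names a galectin relative and no chaperone, and it was lower at T1 (-0.70 ± 0.16, adjusted p = 8.95e-04 in limma) and T2 (-0.40).

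**Figure D4:**
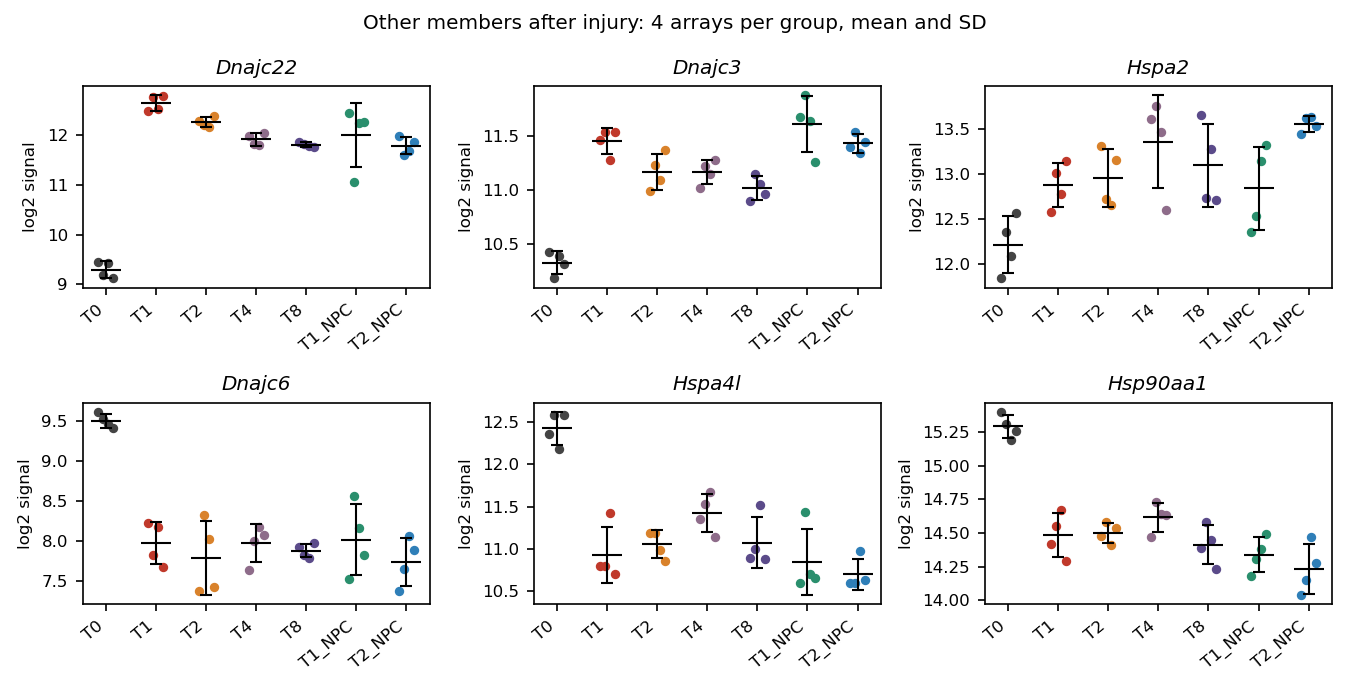
Log2 signal (y axis) of 6 members of other families in the 4 arrays of each group (x axis), with points for arrays, a long bar for the mean and whiskers for the SD. Dnajc22 and Dnajc3 are higher in all injured groups than in T0 with T1 above T8, Hspa2 is higher with wider spread, and Dnajc6, Hspa4l and Hsp90aa1 are lower in all injured groups.

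The scan sessions split the arrays, so the counts were repeated within them. The first session holds the 8 time-course arrays on which value table and scanner outputs agree, with 1 array each of T1 and T4, and the 12 time-course arrays of the second are all among the 16 on which they disagree. The T1 and T4 values of the first session therefore rest on a single array, assumed to vary like the others. The first session gave 9 members higher and 15 lower at T1, and 10 and 14 at T8 (35.8% of members at each, against 27.9% and 34.2% of all features). The second session gave 11 and 19 at T1, and 8 and 14 at T8 (44.8% and 32.8%, against 41.8% and 34.7%). Hspb1 was 1.59 higher at T1 within the first and 1.44 within the second session, and Dnajc22 3.04 and 3.54. Hspb3 and Dnajc6 were lower at all 4 time points in both. Hspa1l was not called at any time point within the first session.

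Genes around the chaperones were counted from lists of cofactors, beside 19.1% of all features higher and 25.1% lower at T1, and 18.2% and 21.5% at T8. Of 20 measured regulators and cofactors of HSP70 and HSP90, Hspa4l included, 2 rose and 10 fell at T1, and 1 rose and 9 fell at T8; their median log2 fold change was -0.28 at T1, against -0.10 for all features. Hsf1, the main heat shock factor, differed from T0 by -0.07 ± 0.17 at T1, while Hsf2 (-0.70) and Hsf4 (-1.24), other heat shock factors, were lower. The ubiquitin ligase Stub1 (CHIP), which marks HSP70 clients for destruction, was 0.51 lower at T1. Of 20 genes of folding in the endoplasmic reticulum and its stress response, 10 rose and 1 fell at T1, with a median of 0.40. P4hb, a disulphide isomerase, was 1.83 ± 0.18 higher, Edem1, which passes misfolded glycoproteins to degradation, 1.80, and Ddit3 (CHOP), a factor of lethal stress, 0.54 lower. Of 11 TRiC chaperonin and prefoldin genes, which fold actin and tubulin, 1 rose and 2 fell at T1 and 0 rose and 5 fell at T8. Of 8 genes of mitochondrial import and folding, 0 were called at T1. The eye lens crystallins are small heat shock proteins too: Cryab was 0.88 lower at T1 and Cryaa was 2.13 higher at T4 and 2.46 higher at T8. These lists were chosen with earlier results of these data known.

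Between neighbouring time points, 0 members passed the test in limma: for T2 against T1 (1.48% of all features; 6 members at an unadjusted p under 0.05), T4 against T2 (0.0761%; 5 members) and T8 against T4 (0.0902%; 1 member). With the scan session as a block in a fit of the time-course arrays alone, 3 members passed for T2 against T1 (4.48%, against 4.8% of all features). In the same fit 2 passed for T4 against T2 (2.99%, against 1.05%), and Hspb1 passed in both (0.43 and 0.52). Over the longer span from T1 to T8, 8 members changed (11.9%, against 9.87% of all features). Hspb1, Hspb2, Hspb7, Hspb8 and Dnajb9 were higher at T8, and Dnajc22, Dnajc3 and Dnajc2 were lower. Of the 5 higher members, 4 were small heat shock proteins, of which Hspb7 was dim and its T8 arrays (4.11 to 5.65) overlapped T1. Within the first session, which holds 1 T1 array, 0 members passed (1.5% of all features), also when the T2_NPC arrays joined those 8 arrays in the fit (3.84%). Within the second session 5 passed (7.46%, against 6.72%), and with the session as a block in the time-course arrays alone 17 (25.4%, against 17.3%).

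The second question was whether these genes differed after NPC transplantation. The 4 T1_NPC arrays shared 1 slide and the 4 T2_NPC arrays another, in a scan session with no other array, so that transplantation and slide or session cannot be told apart. In T1_NPC against T1, 5 of 67 members were higher (7.46%, against 5.45% of all features) and 3 were lower (4.48%, against 6.46%). In T2_NPC against T2, 6 were higher (8.96%, against 4.62%) and 3 were lower (4.48%, against 4.85%). With scaling to the 75th percentile these splits were 8 and 3, and 5 and 4, beside 7397 and 3248 of all features called. With the slide as a random block, 4 and 5 members were called (2236 and 1623 of all features), and without T1_NPC replicate 2, 5 and 14.

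In both comparisons, 4 members were called: Dnajb1, Dnajb6, Dnajc9 and Hspa13. The share of all features called in both transplant comparisons is not given here, and both groups lay in the same scan session. Dnajc9, a histone chaperone of dividing cells, had signals of 12.78, 12.76, 12.24 and 12.84 in T1 and 11.85, 12.07, 11.77 and 11.77 in T1_NPC. It had 12.28, 12.47, 12.46 and 12.46 in T2 and 11.33, 11.34, 11.31 and 11.55 in T2_NPC. The transplanted groups lay below their injured counterparts and below T0 (12.39 to 12.48). Dnajc9 differed by -0.79 ± 0.13 in T1_NPC (adjusted p = 2.76e-04 in limma) and by -1.04 ± 0.13 in T2_NPC (adjusted p = 1.62e-05 in limma), and both of its probes fell in both. Under the deposited samples of the scanner outputs the values were -0.07 and -1.18, and the second was the single member called there (adjusted p = 0.0217 in limma).

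Dnajb1 was higher in both transplanted groups, with 11.99, 12.33, 11.99 and 11.91 in T1_NPC against 11.30, 11.52, 11.49 and 11.58 in T1, and at least 11.80 in T2_NPC against 11.26, 11.19, 11.26 and 11.53 in T2. The groups did not overlap. The differences were 0.58 ± 0.17 (adjusted p = 0.0318 in limma) and 0.59 ± 0.17 (adjusted p = 0.0354 in limma), and each was lost without any of several single arrays, as without T1_NPC replicate 2 (0.49) or T2_NPC replicate 4 (0.55). Only 1 of its 2 probes was called in each. Dnajb6 was higher by 0.44 ± 0.11 and 0.47 ± 0.11, again with 1 of 2 probes called. Hspa13, an HSP70 protein of the endoplasmic reticulum, was higher by 0.35 and 0.46, but with scaling to the 75th percentile it was not called in either (0.27 and 0.31).

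Hspa4 (Apg-2), an HSP110 protein, passed the test in T1_NPC and not in T2_NPC. Its signals were 12.47, 12.11, 12.51 and 11.58 in T1_NPC against 13.24, 13.44, 13.24 and 13.48 in T1, and 13.51, 13.48, 13.20 and 12.48 in T2_NPC against 12.89, 13.48, 13.25 and 13.36 in T2. The T1_NPC arrays lay below all T1 and T0 arrays, and T2_NPC overlapped T2. The difference was -1.18 ± 0.22 in T1_NPC (adjusted p = 0.00125 in limma) and -0.07 in T2_NPC, and the difference between these effects (1.10 ± 0.31) did not pass (adjusted p = 0.137 in limma). Both probes fell in T1_NPC, by unequal amounts (-1.69 and -0.67). Under the deposited samples the T1_NPC value was 0.27.

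Hspb8 and Hspb7 were higher and Dnajc22 lower in T1_NPC. Hspb8 was higher by 0.69 ± 0.19, with T1_NPC at 10.75, 11.85, 11.03 and 11.04 overlapping T1, and was not called without replicate 2 (0.46), T1 replicate 1 (0.63) or T1 replicate 3 (0.60). Dnajc22 had 12.44, 11.05, 12.25 and 12.27 in T1_NPC, and its difference of -0.64 shrank to -0.32 without replicate 2 and lost the call, as it did without T1 replicate 2 (-0.60) or T1 replicate 4 (-0.59). Replicate 2 was the extreme T1_NPC array in both.

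In T2_NPC, Dnajc14 was higher by 0.72 ± 0.17, with 9.43, 9.41, 9.29 and 9.43 against 8.92, 8.44, 8.45 and 8.86 in T2. Dnaja4 (0.64), Dnaja3 (0.55, a mitochondrial DnaJ protein) and Dnajc15 (-0.42, a DnaJ protein of mitochondrial import) were also called, as was Dnajc21 (-0.62). The calls of Dnaja4 and Dnajc21 were each lost without any of several single arrays, as without T2 replicate 3 (0.57 and -0.56), and so was that of Dnajc15 (-0.36). Of the 9 members called in T2_NPC, 3 (Dnaja4, Dnajc14 and Dnajc21) were also called at T2 against T0. Dnaja4 changed sign (-0.87 at T2, 0.64 in T2_NPC), whereas Dnajc14 was higher in both (0.52 and 0.72) and Dnajc21 lower in both (-0.97 and -0.62). Of the 8 in T1_NPC, 2 were also called at T1 against T0, with opposite signs: Dnajc22 (3.34 at T1, -0.64 in T1_NPC) and Hspb7 (-0.66 and 0.86). T1 and T2 arrays serve in both kinds of comparison, and the share of all features called in both is not given here.

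**Figure D5:**
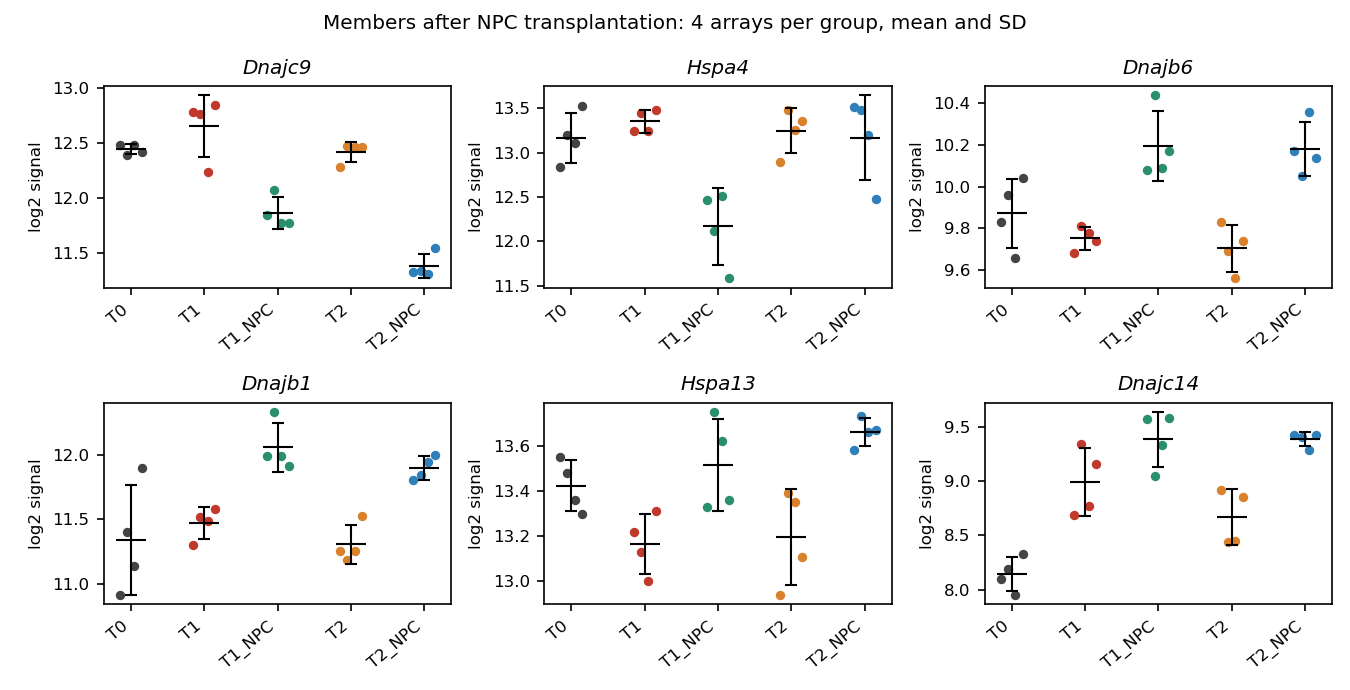
Log2 signal (y axis) of 6 members in T0, the injured groups at weeks 1 and 2 and the transplanted groups (x axis), with points for the 4 arrays, a long bar for the mean and whiskers for the SD. Dnajc9 lies lower in both transplanted groups, Hspa4 in T1_NPC, and Dnajb6, Dnajb1, Hspa13 and Dnajc14 have higher means in the transplanted groups.

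The difference between the transplantation effects was called for 1 member, Hspb7 (1.49% of members, against 0.299% of all features). Hspb7 had 4.72, 4.82, 4.83 and 5.23 in T1_NPC, above the T1 arrays, and 4.05, 3.89, 4.39 and 4.10 in T2_NPC, below the T2 arrays at 4.87, 4.56, 4.96 and 4.66. Its change was 0.86 ± 0.22 in T1_NPC (adjusted p = 0.0145 in limma; 0.14 and not called with normexp correction, and not called with the slide as a random block, without dim probes or with the brightest probe) and -0.66 in T2_NPC (adjusted p = 0.0626 in limma), and the difference was -1.52 ± 0.32 (adjusted p = 0.0332 in limma). The gene was dim on all arrays, and 0 of its 2 probes were called on their own in either group. The call of the difference was lost under 15 of 38 alternatives, with values from -1.96 to -0.32 over all of them. It was lost with normexp correction (-0.32, adjusted p = 0.24 in limma), without dim probes or with the brightest probe (-1.87 in both), and without any of 10 single arrays (-1.56 to -1.41). With scaling to the 75th percentile, 1 member was higher and 3 were lower in this comparison, Hspa4 being the higher one (1.04), and 2 of the lower ones (Dnajb7 and Dnajc5b) were not well above background on any array.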

How the data were processed

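Spinal cord RNA of 28 samples in 7 groups of 4 was labelled with Cy3 and hybridised to 1-colour Agilent 4x44K rat arrays. Per the labels and file headers, the deposited scanner outputs (Agilent Feature Extraction 10.7.1.1) hold spot intensity, background subtracted and not normalised between arrays, and flags. The deposited value table of the authors holds log2 values after quantile normalisation: its sorted columns were identical within 0.00175, with a median of 7.25 in each. Centring of genes was not seen.

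Of 45018 spots, 1639 control spots were removed. Averages were taken over the spots of each of 41012 probes, then over the probes of each of 35469 gene names, which came from the 8 scanner outputs that list them and can be old. Probes that disagree are named in the text for some genes and not for all. Groups came from the labels. Where the value table and the scanner outputs disagreed on the sample, the value table was followed. Flagged outlier spots (0.307% of spots) were kept in the value table, and 0 spots were saturated.

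A mean per group was fitted over all 28 arrays by limma 3.58.1 with eBayes, run under R 4.3.3, with tables read by the data.table package (1.17.8). Benjamini-Hochberg adjustment ran over all features, with a threshold of 0.05, for 11 comparisons. The fit was tested on simulated data. Tables and figures were made with Python 3.11.15, pandas 2.3.3, numpy 2.4.6 and matplotlib 3.10.9. Alternatives were 75th percentile scaling, normexp correction (offset 50, on median spot signals, since mean signals are not in every scanner output), a filter on dim probes (27778 features left), the brightest probe, every probe, a 2-fold threshold, trend and robust eBayes, fewer arrays, slide, scan session and replicate blocks, the deposited samples and leaving out each array. Fixed blocks of slide or scan session were fitted on the time-course arrays alone, without the transplanted groups. Arrays of the same scan session deviated from their group means together (mean correlation 0.17, against -0.18 between sessions), and the correlation within a slide was 0.173. The number of arrays limits the precision.

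Members were set by the naming rule. Genes named are a set chosen by role, the 3 largest rises and falls per comparison among called members that were well above background and did not overlap between groups, listed cofactors and relatives under other names; other called members are named with the counts they belong to. Members and lists were chosen with earlier results of these data known. Lists covered cofactors, chaperonin, crystallins, endoplasmic reticulum, mitochondria and markers of 9 cell types. Promoters came from RefSeq (GRCr8). Protein sequences were not used here.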

Additional observations from a re-analysis of the deposited data

Results flagged for a closer look

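Over the 27 genes named by rule and 7 groups, 15 of 189 groups of 4 arrays held an array far from the other 3, judged by its gap to the nearest array as a share of the range of the group (Dixon's test at the 95% level). Chance gives about 1 such group in 20. In T1_NPC replicate 2, Dnajb13 had a log2 signal of 3.06, not well above background, with the next array at 5.81, Dnajc22 had 11.05 (next 12.25), and Hspa4l had 11.43 (next 10.70). Dnajc15 was 12.22 in T1_NPC replicate 4 (next 12.42), and Hspa1a was 9.42 in T1_NPC replicate 1 (next 9.79).

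Dnajc9 was low in T1 replicate 3 (12.24, next 12.76), T2 replicate 1 (12.28, next 12.46) and T8 replicate 3 (12.38, next 12.47), and high in T2_NPC replicate 4 (11.55, next 11.34). Hspa4l was high in T1 replicate 3 (11.42, next 10.80) and in T2_NPC replicate 3 (10.97, next 10.63). Dnaja4 was low in T1 replicate 1 (9.94, next 10.35), and Dnajc14 in T2_NPC replicate 3 (9.29, next 9.41). Hspa1l was low in T4 replicate 4 (5.69, next 6.14), and Hspa1a was high in T8 replicate 1 (10.15, next 9.56).

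In the limma test of T8 against T1, 8 members were called. Listed first are the 6 named by rule for that comparison. Hspb7 (0.85) and Dnajb9 (0.30) were also called, both higher at T8. Of those named by rule, Hspb2 (1.40), Hspb8 (0.84) and Hspb1 (0.83) were higher at T8 on the log2 scale. Dnajc22 (-0.83), Dnajc3 (-0.44) and Dnajc2 (-0.32) were lower. The transplantation effects differed for Hspb7 (-1.52 from T1_NPC to T2_NPC).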

How the results depend on the processing

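Under the deposited samples of the scanner outputs, the counts of members called fell to 0 in all comparisons but T2_NPC against T2 (1), and 10 values turned sign: Dnajc22 (0.47) and Dnajc3 (0.11) for T8 against T1, Hspb7 (-0.09), Dnajb1 (-0.20), Dnajb6 (-0.05), Hspa4 (0.27) and Dnajc22 (0.69) in T1_NPC, Hspb2 at T4 (-0.31), Hspb8 at T2 (-0.39) and Dnaja1 at T1 (0.11). Of 74 pairs of a named gene and a comparison, 29 kept their call under every alternative but that one, and 45 lost it under 1 or more. The 2-fold threshold is among these alternatives, and any pair with a log2 difference under 1 loses its call there by definition. Some pairs lost it under no other alternative but the deposited samples, as Hsp90aa1 at T1 (-0.80). Under the deposited samples, 0 to 1 of all features passed in the comparisons with T0, 0 in T1_NPC and 43 in T2_NPC.

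A 2-fold threshold left 9 members at T1, 8 at T2, 12 at T4, 13 at T8, 7 at all 4 time points, and 1 each for T8 against T1, T1_NPC and T2_NPC. Within the first scan session, with 1 T1 and 1 T4 array, 17 were called at T4 and 0 for T8 against T1, and within the second, 5 for T8 against T1 and 1 for T4 against T2. With the slide as a fixed block, 2 were called for T2 against T1 and 2 for T4 against T2 (1542 and 263 of all features). T8 against T1 gave 16 with that block (5936 of all features). With the scan session as a block, the counts in that order were 3, 2 and 17 (1702, 374 and 6119 of all features). The time-course arrays alone, without a block, gave 1 for T4 against T2 (124 of all features). The 12 arrays on which both sources agree, the first session and T2_NPC, gave 0 for T8 against T1 and 24 for T2_NPC. T1_NPC had 3 with the 2 groups compared alone (1223 of all features). The slide as a random block gave 4 for T1_NPC and 5 for T2_NPC (2236 and 1623 of all features). The difference between transplantation effects had 4 members with 75th percentile scaling (1976 of all features). It had 0 with normexp correction, without dim probes, with the brightest probe and with trend and robust eBayes. It also had 0 with every probe on its own and with the slide as a random block. The cause was not tested.

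Leaving out 1 array gave 26 to 35 members at T1, 21 to 29 at T2, 24 to 28 at T4 and 24 to 30 at T8. It gave 16 to 22 at all 4, 0 to 1 for T2 against T1 and T4 against T2, and 0 for T8 against T4. T8 against T1 had 5 to 12 (5 without T1 replicate 2 or T8 replicate 2). T1_NPC had 5 to 10 (5 without T1_NPC replicate 2, T1 replicate 2 or T1 replicate 3). T2_NPC had 4 to 14 (4 without T2_NPC replicate 1 or T2 replicate 3, 14 without T1_NPC replicate 2). The difference of effects had 0 to 1. The shares of all features in these fits are not given here.

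Replicate numbers did not pair the samples: deviations of arrays with 1 number had a mean correlation of 0, from -0.34 to 0.30. With the replicate block, 29, 26, 27 and 26 members were called at T1, T2, T4 and T8 (15337, 13876, 13175 and 13793 of all features), and 18 at all 4. It gave 8 members for T8 against T1, 8 in T1_NPC and 7 in T2_NPC (3303, 3834 and 2940 of all features). For the difference of effects it gave 1, and between neighbouring time points 0. Small changes of dim genes such as Hspb7 and Hspa1l are limited by their signal over background.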

Other observations

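Some family genes carry other names on the array. Rbj, now Dnajc27, was lower at T1 (-1.06 ± 0.16, adjusted p = 1.04e-05 in limma), T2 (-1.16), T4 (-0.90) and T8 (-0.86), and differed by -0.02 in T1_NPC and -0.17 in T2_NPC. LOC689593, now Dnajb2, was higher in T2_NPC (0.73 ± 0.22, adjusted p = 0.0405 in limma) and passed no test in the other comparisons made for it. Tra1, now Hsp90b1 (Grp94), the HSP90 of the endoplasmic reticulum, differed from T0 by 0.14 ± 0.19 at T1 and -0.12 at T8 and passed no test. RGD1560220, now Dnajc19, passed no test either.

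After transplantation, 4 of 20 genes of endoplasmic reticulum folding were higher in T1_NPC and 5 in T2_NPC, with 0 lower. P4hb, a disulphide isomerase, was 0.64 higher in T1_NPC and 1.07 higher in T2_NPC on the log2 scale. Of 20 regulators and cofactors of HSP70 and HSP90, 3 were higher in T1_NPC (Bag5, Cdc37 and Stub1) and 3 in T2_NPC (Cdc37, Hsbp1 and Trap1). Of 11 TRiC and prefoldin genes, which fold actin and tubulin, 2 were higher in T1_NPC (Cct3 and Tcp1) and 4 in T2_NPC (Cct2, Cct3, Cct7 and Tcp1), where Pfdn6 was lower. Of 8 mitochondrial genes, 0 were called in T1_NPC and 2 were higher in T2_NPC (Lonp1 and Timm44). Of the 2 crystallins, 0 were called in either.

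Among the markers not given above, 1 of 7 astrocyte genes was higher and 3 were lower at T1, and 2 were higher and 0 lower at T4. Of 7 smooth muscle and pericyte genes, 4 were higher at T1 and 4 at T8, and of 6 endothelial genes 3 were higher at T1 and 2 at T8.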
